A study of Mus musculus with 25 samples.

Results

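The difference between the metformin response of Ncoa5+/- livers and that of wild type livers was examined in the 39-week cohort, which holds 17 of the 25 mice of the series. All 17 mice entered the comparison, and they were chosen by their labelled age alone. Ncoa5+/- mice carry 1 intact copy of Ncoa5, which encodes nuclear receptor coactivator 5, and the labels do not say how the other copy was disrupted. The groups were 5 Ncoa5+/- mice given metformin, 5 untreated Ncoa5+/- mice, 3 wild type mice given metformin and 4 untreated wild type mice. Treated mice received about 250 mg of metformin per kg of body weight per day in their drinking water from week 8, for 31 weeks. All were C57BL/6 mice on a standard diet, and RNA came from whole frozen liver, so fewer cells of a type and less RNA per cell cannot be told apart.

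Metformin is a biguanide taken up into hepatocytes by organic cation transporters. It slows respiratory complex I, which lowers the energy charge of the cell and can activate the AMP-activated protein kinase, and it lowers glucose output by the liver. Ncoa5 haploinsufficiency in mice is known for glucose intolerance and liver tumours in males, and p21, the product of Cdkn1a, is the cell cycle inhibitor named in the title of the study.

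For each locus the interaction was the metformin change in Ncoa5+/- mice (treated minus untreated) minus the metformin change in wild type mice, on the scale of log2(FPKM + 1). FPKM are fragments per kilobase of transcript and per unit of sequenced fragments, as the authors' Cuffnorm run scaled them over the cohort. A positive interaction means that the treated minus untreated difference was more positive in Ncoa5+/- mice, and 0 means an equal difference in both genotypes. The file lists 46052 loci. Of these, 14 were left out and treated as failed estimates: they were at 0 throughout a group, yet above 0 in all mice of another group that averaged 1 FPKM or more. The rule also took in loci whose zeros may be true levels. Examples are Gm13486 (at most 2.12 FPKM) and an unnamed locus on chromosome 8. The latter had 2.11 to 18.8 FPKM in Ncoa5+/- mice and at most 0.625 FPKM in wild type mice. A further 11441 with a mean of at least 1 FPKM were tested in 1 limma model of the 4 groups. They include 106 loci at 0 in a whole group that did not meet this rule, and none of the genes named by the rule is among them. Read counts are not used here, so depth is unknown, and the spread between mice is the measure of error.

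The libraries differed in how their signal was spread. The summed FPKM ran between 857291 and 2089981 per mouse, and the 50 highest loci held between 43.1% and 78.3% of it. They held over 70% in 1 treated and 1 untreated Ncoa5+/- mouse. Transcripts of the Y-linked genes Ddx3y (11.9 to 19.7 FPKM) and Eif2s3y (30.1 to 45.4 FPKM) were present in all 17 livers, and the labels give no sex. Of 15 hepatocyte markers, 14 were found. Alb and Serpina1a were listed at 0 in every mouse, Apoa1, Apoa2 and Ttr were listed at 0 in all 10 Ncoa5+/- mice, and a further 2 were left out for a group at 0. The hepatocyte fibrinogen gene Fgb averaged 821 FPKM in treated Ncoa5+/- mice, 953 FPKM in untreated Ncoa5+/- mice, 907 FPKM in treated wild type mice and 938 FPKM in untreated wild type mice. The numbers in the sample titles also went with treatment. Of the 8 treated mice 7 had a number below the lowest of the 9 untreated mice. What these numbers stand for is not given, and their part in the results was not tested.

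Ncoa5 mRNA (locus chr2:165000274-165034867, positions in GRCm38) did not separate the genotypes. It measured 3.32, 3.87, 3.88, 3.07 and 3.63 FPKM in treated Ncoa5+/- mice and 4.42, 3.58, 2.63, 3.67 and 4.31 FPKM in untreated Ncoa5+/- mice, against 3.675, 3.58 and 6.64 FPKM in treated wild type mice and 4.28, 4.68, 4.12 and 3.60 FPKM in untreated wild type mice. All 4 groups overlapped, and 1 treated wild type mouse stood above all others. Among untreated mice the Ncoa5+/- value was lower than wild type by a log2 difference of -0.14 (limma adjusted p = 0.929), so the genotype of each library rests on its label. The interaction of Ncoa5 was -0.13 with a 95% interval of -0.58 to 0.33, and the two-sided exact permutation of treatment within each genotype, over 8820 arrangements, gave p = 0.649 (adjusted over this test and that of Cdkn1a, p = 0.923).

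Cdkn1a (chr17:29090978-29100722) was higher in Ncoa5+/- than in wild type livers with and without metformin, and its metformin difference had a similar size in both genotypes with a wide error. It measured 24.5, 15.0, 14.4, 11.3 and 25.7 FPKM in treated Ncoa5+/- mice and 117, 17.7, 15.0, 18.3 and 33.5 FPKM in untreated Ncoa5+/- mice. In wild type livers it measured 1.06, 0.684 and 0.673 FPKM in treated mice, against 1.28, 2.68, 1.71 and 1.56 FPKM in untreated mice. Every Ncoa5+/- value was above every wild type value. Treated and untreated values overlapped in Ncoa5+/- mice, where 1 untreated mouse was far above the other 9, and did not overlap in wild type mice. The metformin difference was -0.70 in Ncoa5+/- mice and -0.62 in wild type mice, both on the log2(FPKM + 1) scale, which shrinks the wild type difference because those levels are near the pseudocount. The interaction was -0.08 with a 95% interval of -1.49 to 1.33 (two-sided exact permutation p = 0.923). Its sign depended on single mice and on the pseudocount. It was 0.414 without the untreated Ncoa5+/- mouse at 117 FPKM, 0.0617 without treated Ncoa5+/- replicate 4, 0.0151 without treated wild type replicate 1, 0.00874 without untreated wild type replicate 1, and 0.327 with a pseudocount of 0.1. These permutations test whether the drug had no effect in either genotype, which is a stricter assumption than equal effects.

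**Figure D1:**
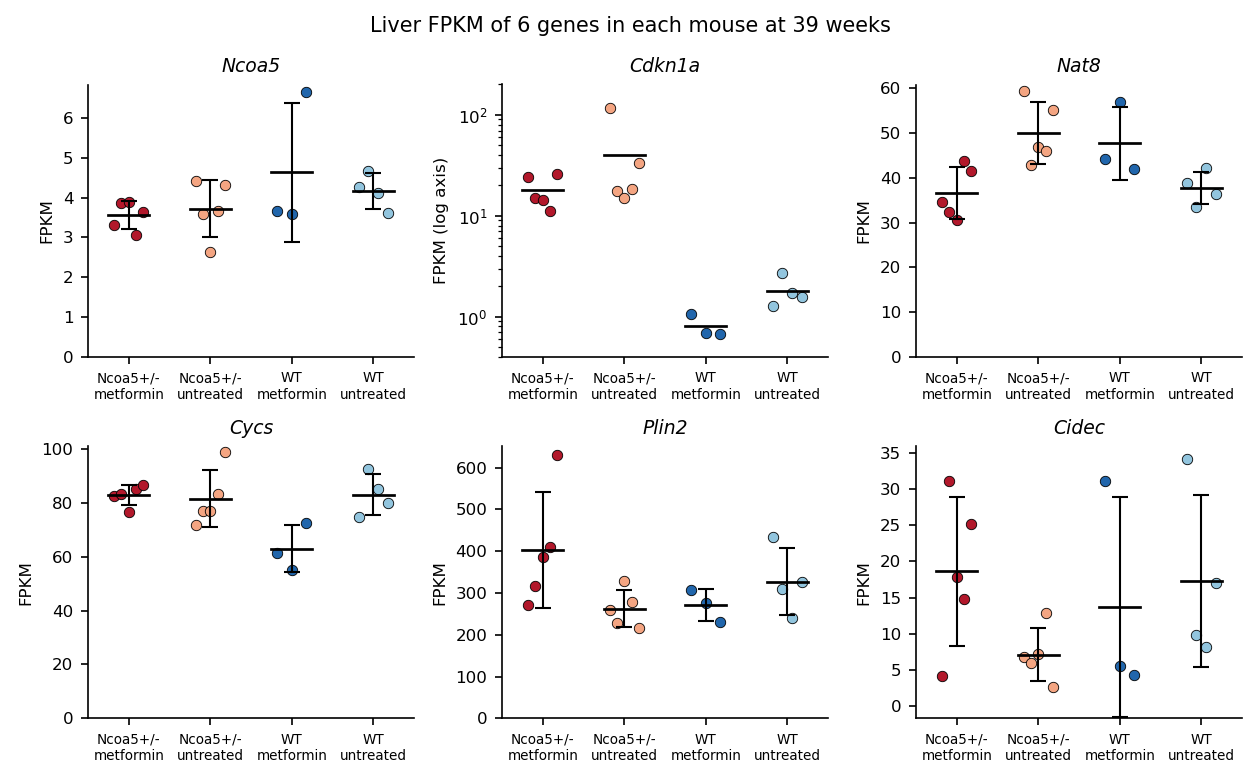
FPKM of Ncoa5, Cdkn1a (log axis), Nat8, Cycs, Plin2 and Cidec in each liver, by genotype and treatment. Points are mice, lines are group means and bars are 1 SD (no bars on the log axis). Cdkn1a separates the genotypes without overlap, Nat8 averages lower in treated than untreated Ncoa5+/- mice and higher in treated than untreated wild type mice, and Cycs averages lowest in treated wild type mice.

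No locus passed the interaction test after Benjamini-Hochberg adjustment. In limma 0 of 11441 loci (0%) had an adjusted p under 0.05, the smallest adjusted p was 0.991, and 319 loci (2.79%) had an unadjusted p under 0.05, 136 (1.19%) with a positive and 183 (1.6%) with a negative interaction. Over all tested loci 52.3% of interactions were positive and the median was 0.0116. The median standard error was 0.176 and the median unadjusted 95% interval reached 0.373 to either side. For a typical locus an estimated difference in response smaller than that did not reach an unadjusted p under 0.05. The adjusted threshold asked for more, so larger differences could also be missed with these mice. A p that misses the threshold does not show that the genotypes responded alike.

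The separate responses were also below the adjusted threshold, although more loci reached an unadjusted p under 0.05. Metformin in Ncoa5+/- mice gave 0 called loci in limma (smallest adjusted p = 0.166) with 1010 loci (8.83%) at an unadjusted p under 0.05. Metformin in wild type mice gave 0 called loci (smallest adjusted p = 0.155) with 1070 loci (9.35%). The 245 loci (2.14%) below that value in both genotypes held 242 with the same direction, 91 higher and 151 lower in treated mice of both genotypes, and 3 with opposite directions. Across all tested loci the Ncoa5+/- change and the wild type change had a Pearson r of 0.163 and a Spearman rho of 0.354, given as a description since genes are not independent replicates. The changes had opposite signs at 37.7% of all tested loci.

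The 319 loci were selected for unequal changes, which need not have opposite signs. Loci with opposite signs numbered 245 (76.8%), of which 110 were higher in treated Ncoa5+/- mice and lower in treated wild type mice and 135 the reverse. The wild type change was the larger in size at 238 of the 319, and at 6473 of all 11441 tested loci. Ncoa5+/- groups held 5 and 5 mice, against 3 and 4 in the wild type groups, and the median standard error of the change was 0.112 in Ncoa5+/- mice, against 0.135 in wild type mice. Larger error and larger response in wild type mice cannot be told apart by this count.

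The authors' deposited table compares treated with untreated Ncoa5+/- mice by the authors' own test. It marks 173 of its 45925 rows as significant, 54 higher and 119 lower in treated mice. Cdkn1a was among them, at 20.1 FPKM in treated and 43.5 FPKM in untreated Ncoa5+/- mice (q = 0.00668 by the authors' test). Its untreated value includes the mouse that was far above the others. Of the marked rows, 103 matched a tested locus by symbol and position. In wild type mice 76 of these 103 had a metformin difference of the same sign (73.8%, against 61.6% of all tested loci). Of the 103, 11 reached an unadjusted p under 0.05 with that sign. This is near the 9.35% of all tested loci that reached such a p in wild type mice, in either direction.

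**Figure D2:**
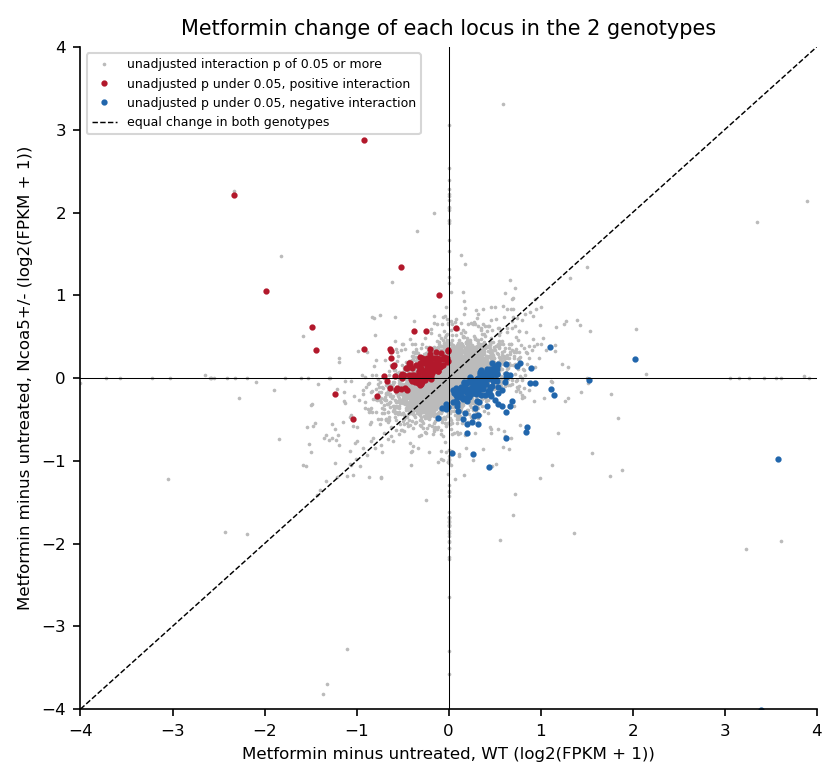
Each point is a tested locus, with the treated minus untreated difference in wild type mice on the horizontal axis and in Ncoa5+/- mice on the vertical axis, both in log2(FPKM + 1). The dashed line marks equal change in both genotypes, coloured points have an unadjusted interaction p under 0.05, and 13 loci lie outside the axes of 4 to either side. Most coloured points sit in the quadrants where the changes have opposite signs.

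Nat8 (chr6:85830387-85836596), which encodes an N-acetyltransferase of the endoplasmic reticulum, had the smallest unadjusted p among named genes with a negative interaction. It measured 34.7, 32.4, 30.6, 43.8 and 41.5 FPKM in treated Ncoa5+/- mice, against 59.4, 42.9, 46.9, 46.0 and 55.2 FPKM in untreated Ncoa5+/- mice. In wild type mice it measured 44.2, 57.0 and 41.9 FPKM with metformin, against 38.9, 33.5, 42.1 and 36.4 FPKM without. Treated values were mostly the lower in Ncoa5+/- mice and mostly the higher in wild type mice, with 1 mouse crossing in each genotype. The changes were -0.44 and 0.32, and the interaction was -0.77 ± 0.19 (SE; 95% interval -1.16 to -0.37; limma adjusted p = 0.991).

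Cars, the cytosolic cysteinyl-tRNA synthetase, measured 19.4, 20.1, 18.2, 17.4 and 16.2 FPKM in treated Ncoa5+/- mice, against 20.4, 20.997, 17.8, 20.0 and 18.1 FPKM in untreated Ncoa5+/- mice. Treated wild type mice had 15.0, 14.7 and 15.4 FPKM, against 11.6, 13.6, 11.9 and 10.02 FPKM in untreated wild type mice. The wild type groups did not overlap, and all Ncoa5+/- values, treated or not, were above them. The interaction was -0.42 (95% interval -0.68 to -0.17), with a wild type change of 0.33 and an Ncoa5+/- change of -0.09. The other negative genes chosen by unadjusted p were Igkv6-23, an immunoglobulin kappa variable segment (-1.45), Rpl36a-ps2, a ribosomal protein pseudogene whose value may include reads of related copies (-0.775), Mtcp1 (-0.475), the Arf GTPase-activating protein gene Asap3 (-0.43), the homologous recombination gene Brca2 (-0.44), the oligosaccharyltransferase subunit gene Krtcap2 (-0.375), the N-terminal methyltransferase gene Ntmt1 (-0.30) and Tmem176a (-0.30).

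Supt7l (chr5:31514563-31556932), a subunit of the STAGA coactivator complex, had the smallest unadjusted p among named genes with a positive interaction. It measured 2.60, 2.46, 2.40, 2.42 and 2.62 FPKM in treated Ncoa5+/- mice, against 2.40, 2.28, 2.29, 2.08 and 2.40 FPKM in untreated Ncoa5+/- mice. Wild type livers gave 2.08, 2.36 and 2.28 FPKM with metformin, against 3.15, 3.17, 2.68 and 2.74 FPKM without. Treated and untreated values did not overlap in either genotype, with treated mice the higher in Ncoa5+/- and the lower in wild type. The interaction was 0.37 (95% interval 0.16 to 0.57; limma adjusted p = 0.991).

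Cycs (chr6:50562562-50566538) encodes cytochrome c, the electron carrier between respiratory complexes III and IV. It measured 82.6, 83.3, 76.7, 85.2 and 86.7 FPKM in treated Ncoa5+/- mice, against 71.6, 77.1, 77.0, 83.2 and 98.8 FPKM in untreated Ncoa5+/- mice. The wild type values were 61.3, 55.2 and 72.4 FPKM in treated mice, against 74.7, 92.6, 85.0 and 79.9 FPKM in untreated mice. The Ncoa5+/- groups overlapped throughout, and the treated wild type mice were the lowest of the wild type mice, without overlap. The interaction was 0.43 (95% interval 0.13 to 0.73), from an Ncoa5+/- change of 0.03 and a wild type change of -0.40.

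Tmem56 showed the opposite make-up, with the difference on the Ncoa5+/- side. It measured 40.6, 46.9, 47.2, 38.3 and 49.9 FPKM in treated Ncoa5+/- mice, against 32.7, 23.1, 34.3, 30.9 and 25.4 FPKM in untreated Ncoa5+/- mice, with no overlap. In wild type mice it measured 34.9, 33.3 and 34.9 FPKM with metformin, against 36.6, 34.8, 27.9 and 31.1 FPKM without, with overlap. The changes were 0.60 in Ncoa5+/- mice and 0.08 in wild type mice, and the interaction was 0.52 (95% interval 0.16 to 0.88).

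Cyp46a1, the cholesterol 24-hydroxylase, had an interaction of 0.73 (95% interval 0.19 to 1.27), from changes of 0.02 in Ncoa5+/- mice and -0.70 in wild type mice. Further positive genes chosen by unadjusted p were Eif1ax, a translation initiation factor (0.57), the bone morphogenetic protein ligand Bmp10 (0.52), the GATOR1 subunit gene Nprl3 (0.51), the nucleoporin gene Nup43 (0.39) and Ccdc91 (0.355). These genes, positive and negative, had an adjusted p of 0.991, and their small unadjusted p is what selected them. Gm10037, outside the naming rule and chosen after its value was seen, had the smallest unadjusted p of all tested loci (interaction 0.95, limma adjusted p = 0.991).

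Some genes had much the same metformin difference in both genotypes, and these were chosen after their values were seen. Evi5, a regulator of Rab GTPases, measured 32.6, 31.3, 36.9, 32.9 and 29.4 FPKM in treated Ncoa5+/- mice, against 21.05, 23.3, 26.3, 24.8 and 23.6 FPKM in untreated Ncoa5+/- mice. Wild type livers gave 34.6, 30.7 and 29.6 FPKM with metformin, against 22.6, 25.3, 24.1 and 24.0 FPKM without. Every treated mouse was above every untreated mouse of either genotype. The changes were 0.44 and 0.38, the interaction was 0.06 with a 95% interval of -0.18 to 0.29, and the adjusted p of the Ncoa5+/- change was the smallest in that comparison (limma, 0.166). Tcf7l2, a Wnt pathway transcription factor, had changes of -0.50 in Ncoa5+/- mice and -0.68 in wild type mice, with an interaction of 0.18 (95% interval -0.25 to 0.60). The mitochondrial ribosomal protein gene Mrpl32 had changes of 0.24 and 0.25, and the spliceosomal gene Snrpe had changes of 0.21 and 0.33. Fgf21, a hepatokine of fasting, had changes of 1.344 in Ncoa5+/- mice and 1.504 in wild type mice, and G0s2, an inhibitor of adipose triglyceride lipase, 1.21 and 1.32. Their interactions of -0.16 and -0.11 had 95% intervals of -1.96 to 1.64 and -2.12 to 1.91, which hold large differences of either sign.

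The genes for the uptake and sensing of metformin were read as 2 lists. Of 9 organic cation transporters 4 were expressed highly enough to be tested and all 4 interactions were positive (median 0.21), none at an unadjusted p under 0.05. The largest was that of the carnitine transporter gene Slc22a5 at 0.48 (95% interval -0.01 to 0.98), whose treated and untreated Ncoa5+/- values did not overlap (change 0.52) while the wild type change was 0.04.

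Among 10 tested subunits and upstream kinases of the AMP-activated protein kinase, 7 interactions were positive (median 0.13). An unadjusted p under 0.05 was reached by 1 positive and 1 negative gene. Over all tested loci the shares were 1.19% positive and 1.6% negative, and with 10 genes such counts are too small to compare with them. Stradb, the pseudokinase partner of LKB1, measured 16.3, 18.1, 17.4, 17.8 and 16.4 FPKM in treated Ncoa5+/- mice, against 15.7, 16.05, 15.5, 14.5 and 14.9 FPKM in untreated Ncoa5+/- mice. In wild type mice it measured 15.5, 16.8 and 15.4 FPKM with metformin, against 16.9, 16.4, 17.1 and 16.02 FPKM without. The Ncoa5+/- groups did not overlap and the wild type groups did, with an interaction of 0.215 (95% interval 0.05 to 0.38). Prkab1, the beta 1 subunit, measured 12.6, 12.6, 14.0, 13.3 and 11.6 FPKM in treated Ncoa5+/- mice, against 18.1, 18.6, 15.3, 16.3 and 15.7 FPKM in untreated Ncoa5+/- mice, again without overlap. Treated wild type mice had 11.1, 12.7 and 13.5 FPKM, against 15.3, 12.6, 13.5 and 11.2 FPKM in untreated wild type mice. The untreated Ncoa5+/- mice were the highest of the 4 groups, and the interaction was -0.29 (95% interval -0.57 to -0.01).

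Genes of glucose output gave 7 positive interactions of 12 tested, with a median of 0.03. Slc37a4, the glucose-6-phosphate translocase, measured 99.5, 110, 92.9, 92.5 and 90.0 FPKM in treated Ncoa5+/- mice, against 120, 98.4, 84.2, 110 and 125 FPKM in untreated Ncoa5+/- mice. Wild type livers gave 95.7, 86.1 and 107 FPKM with metformin, against 124, 167, 143 and 123 FPKM without. The wild type groups did not overlap (change -0.52), the Ncoa5+/- groups did (change -0.14), and the interaction was 0.38 (95% interval 0.01 to 0.76). Sds, serine dehydratase, had a negative value, with an interaction of -0.87 (95% interval -1.84 to 0.10) from changes of -0.90 in Ncoa5+/- mice and -0.03 in wild type mice. Complex I subunit genes were negative at 27 of 33 (median -0.08). They were positive at 10 of 33 (median -0.0184) with quantile normalization and at 16 of 33 (median -0.00625) with the trend of each library with transcript length removed, a setting chosen after the data were seen. Glycolysis genes were positive at 14 of 17 (median 0.18), among which the phosphoglycerate kinase gene Pgk1 had 0.18, at an unadjusted p under 0.05 in limma.

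**Figure D3:**
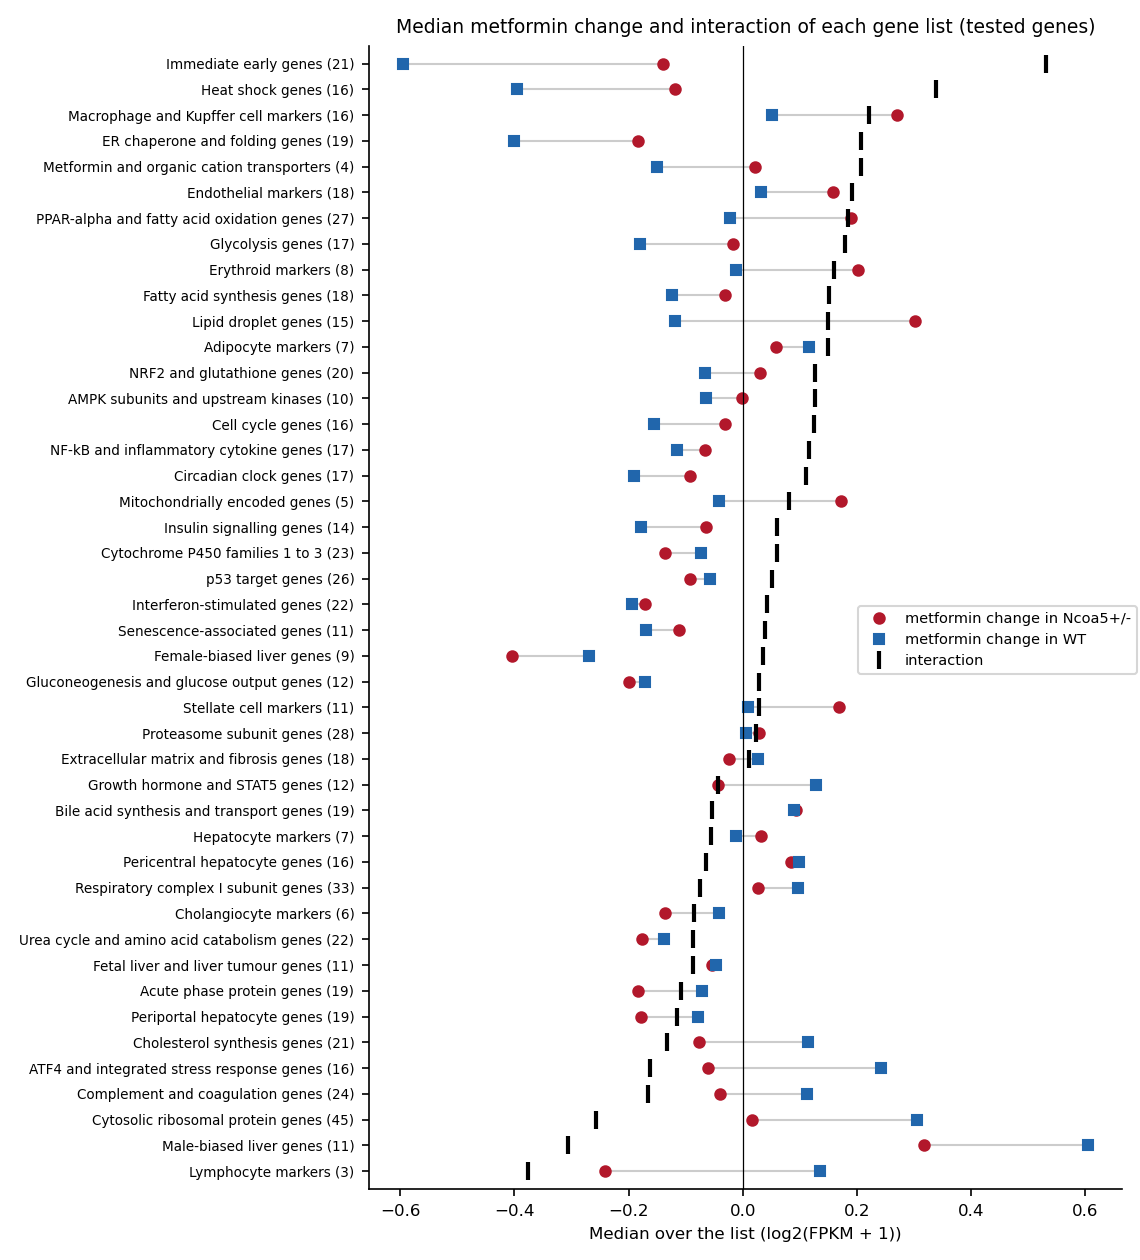
Median treated minus untreated difference in Ncoa5+/- mice (circles) and in wild type mice (squares), and median interaction (bars), for 44 gene lists with at least 3 tested genes, in log2(FPKM + 1), with the number of tested loci in brackets. Immediate early genes (0.53) have the highest median interaction and lymphocyte markers (-0.38, 3 loci) the lowest, and 2 further lists with fewer than 3 tested genes are not drawn.

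Genes of lipid droplets leaned to a positive interaction, with 11 of 15 tested loci above 0 and a median of 0.15, beside 52.3% and 0.0116 over all tested loci. The medians of the separate changes were 0.30 in Ncoa5+/- mice and -0.12 in wild type mice. Plin2 (chr4:86626977-86670072), the main coat protein of droplets in hepatocytes, measured 272, 317, 385, 411 and 631 FPKM in treated Ncoa5+/- mice, against 260, 228, 329, 278 and 217 FPKM in untreated Ncoa5+/- mice. The wild type values were 308, 276 and 231 FPKM in treated mice, against 434, 309, 241 and 326 FPKM in untreated mice. Both pairs of groups overlapped, and the 3 highest of the 10 Ncoa5+/- mice were treated. The interaction was 0.82 (95% interval 0.15 to 1.49; limma adjusted p = 0.991). Cidec, which drives droplet fusion and growth, is listed as 2 loci at the same position. The more variable locus measured 4.20, 31.1, 17.9, 14.8 and 25.2 FPKM in treated Ncoa5+/- mice, against 6.75, 5.93, 7.26, 12.9 and 2.72 FPKM in untreated Ncoa5+/- mice. In wild type mice it measured 31.2, 5.50 and 4.32 FPKM with metformin, against 34.2, 9.80, 8.16 and 17.1 FPKM without. Each wild type group held 1 mouse above 30 FPKM, and all values overlapped. Its interaction was 1.78 (95% interval -0.11 to 3.66), against 0.15 for the other Cidec locus. The median of the list moved both ways with single mice. It was 0.0394 without treated Ncoa5+/- replicate 3, with 10 of 15 loci above 0. Without treated wild type replicate 1 it was 0.432 (13 of 15), and without untreated wild type replicate 2 it was 0.431 (12 of 15).

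PPAR-alpha is the nuclear receptor that drives fatty acid oxidation and ketone body synthesis in fasting liver. Of 27 tested genes of this programme 26 had a positive interaction, against 52.3% of all tested loci. The median was 0.18 and lay between 0.135 and 0.268 in all settings tried. Only 1 of the 27 had an unadjusted p under 0.05, near the share of 2.79% over all tested loci. The change in Ncoa5+/- mice was positive at 26 genes (median 0.19) and in wild type mice at 11 (median -0.02). Acot2, a mitochondrial acyl-CoA thioesterase, measured 2.49, 4.43, 5.72, 3.98 and 6.03 FPKM in treated Ncoa5+/- mice, against 5.26, 2.49, 2.95, 3.60 and 2.86 FPKM in untreated Ncoa5+/- mice. Wild type livers gave 3.10, 2.66 and 1.79 FPKM with metformin, against 6.45, 1.86, 3.06 and 3.68 FPKM without. The groups overlapped in both genotypes. Its interaction was 0.68 (95% interval -0.14 to 1.49), and Fgf21 was the member below 0.

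The list was also read mouse by mouse. Its mean deviation from each gene's mean over the 17 mice was -0.126, 0.223, 0.379, 0.0995 and 0.235 in treated Ncoa5+/- mice, against 0.118, -0.265, -0.103, 0.118 and -0.296 in untreated Ncoa5+/- mice. It was 0.0857, -0.155 and -0.119 in treated wild type mice, against 0.166, -0.205, -0.129 and -0.0262 in untreated wild type mice. Treated and untreated mice overlapped in both genotypes, and the 27 genes, read in the same livers, are not separate measurements of the response.

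Cytosolic ribosomal protein genes had the most one-sided interactions at single genes. Of 60 listed, 45 were tested; 44 were negative, 17 of them at an unadjusted p under 0.05 (1.6% of all tested loci), and the exception was Rplp0 at 0.15. The median was -0.26. The difference lay on the wild type side: the median change was 0.02 in Ncoa5+/- mice and 0.30 in wild type mice, where 43 of 45 changes were positive. Treated and untreated values did not overlap in wild type mice at 34 of the 45 genes (8.33% of all tested loci), and in Ncoa5+/- mice at 0 of the 45 (1.57%).

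Rps19, a protein of the small subunit, measured 520, 434, 538, 445 and 426 FPKM in treated Ncoa5+/- mice, against 455, 560, 457, 485 and 429 FPKM in untreated Ncoa5+/- mice. The wild type values were 546.3, 497 and 439 FPKM in treated mice, against 358, 358, 367 and 413 FPKM in untreated mice. The untreated wild type mice were the lowest of the 4 groups and did not overlap with any other, and the interaction was -0.41 (95% interval -0.72 to -0.11; limma adjusted p = 0.991). Rps24, also of the small subunit, measured 590, 519, 687, 512 and 542 FPKM in treated Ncoa5+/- mice, against 479, 600, 531.4, 530.2 and 485 FPKM in untreated Ncoa5+/- mice. In wild type mice it measured 668, 710 and 591 FPKM with metformin, against 443, 471, 456 and 496 FPKM without. Wild type groups were apart and Ncoa5+/- groups overlapped, with an interaction of -0.37. Rps13 showed the same layout, with 267, 256, 292, 264 and 265 FPKM in treated Ncoa5+/- mice, against 263, 319, 279, 277 and 248 FPKM in untreated Ncoa5+/- mice, and 331, 308 and 287 FPKM in treated wild type mice, against 239, 270, 258 and 262 FPKM in untreated wild type mice (interaction -0.30).

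Vertebrate ribosomal protein genes start at a run of pyrimidines that also controls their translation, so the sequence around each annotated start was read. A run of at least 8 bases that opens with C and holds C and T alone was searched on the coding strand between 30 bases before and 50 bases after each start in the RefSeq windows of GRCm38.p6. Of the 45 tested genes 34 had a window and 25 held such a run (73.5%). By window the figures were 27 of 40 (67.5%), against 23.1% of 32851 windows of the same length over all genes. The stretches of 30 bases that carry the longest run are shown for genes with the layout above (Rps19, Rps24 and Rpl34) and for Rpl11, with the run in capitals. Relative to the annotated start they span positions 20 to 49 (Rps19 and Rps24), -24 to 5 (Rpl34) and 7 to 36 (Rpl11). The runs in capitals therefore need not be the run at which transcription starts.
Rps19, chr7:24884612-24884641, plus strand: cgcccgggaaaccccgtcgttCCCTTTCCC
Rps24, chr14:24490698-24490727, plus strand: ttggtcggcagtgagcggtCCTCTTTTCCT
Rpl34, chr3:130730393-130730422, minus strand: ctgacgcgccgCCTTCCCTgacgtacttcc
Rpl11, chr4:136053357-136053386, minus strand: cggaagtCTCCCTCTCTCTTCCTgttctcc
The match describes letters in the window and says nothing of translation, which was not measured.

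Ribosomal protein mRNAs are short, and length moved with the interaction. The median transcript of the ribosomal protein genes was 727.5 bases (GENCODE), against 1940 bases over the 87.1% of tested loci with a length. Over other protein-coding genes the median interaction was -0.0326 for the 1689 with transcripts up to 1000 bases and 0.0313 for the 7434 with longer ones. With the trend of each library with length removed, a setting chosen after the data were seen, the median of the ribosomal protein genes was -0.23. In that setting 8 of the 45 genes had an unadjusted p under 0.05, beside 247 of all 9969 loci. Ribosomal protein pseudogenes, whose values can include reads of the parent genes, had a median of -0.30 over 26 loci.

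**Figure D4:**
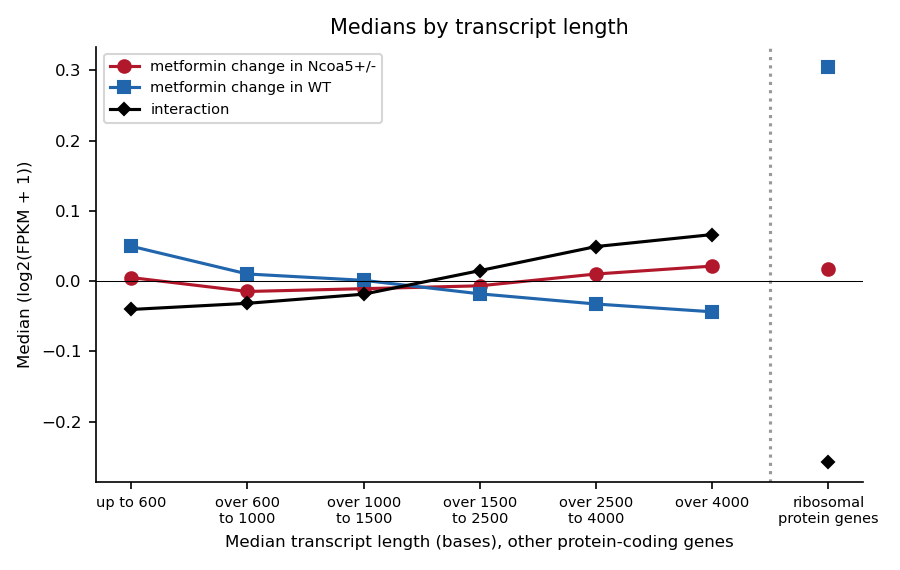
Median treated minus untreated difference in Ncoa5+/- mice and in wild type mice and median interaction, in log2(FPKM + 1), for protein-coding genes other than ribosomal protein genes, by transcript length, with the ribosomal protein genes at the right. The interaction runs between -0.0403 for the shortest and 0.0662 for the longest transcripts, and the ribosomal protein genes lie at -0.26.

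The ribosomal protein pattern also rested on few wild type mice. The mean deviation of the list was 0.261, 0.219 and 0.0412 in treated wild type mice, against -0.217, -0.0860, -0.0916 and -0.104 in untreated wild type mice, and 1 untreated Ncoa5+/- mouse reached 0.245. The number of genes at an unadjusted p under 0.05 was 4 without treated wild type replicate 1, 5 without treated wild type replicate 2 and 5 without the 2 libraries with over 70% of their FPKM in 50 loci. Over all 11441 tested loci the counts in these settings were 244, 253 and 209, against 319 with all mice. The median stayed between -0.321 and -0.170 in all settings tried. Whether RNA quality or library composition takes part in it was not tested.

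**Figure D5:**
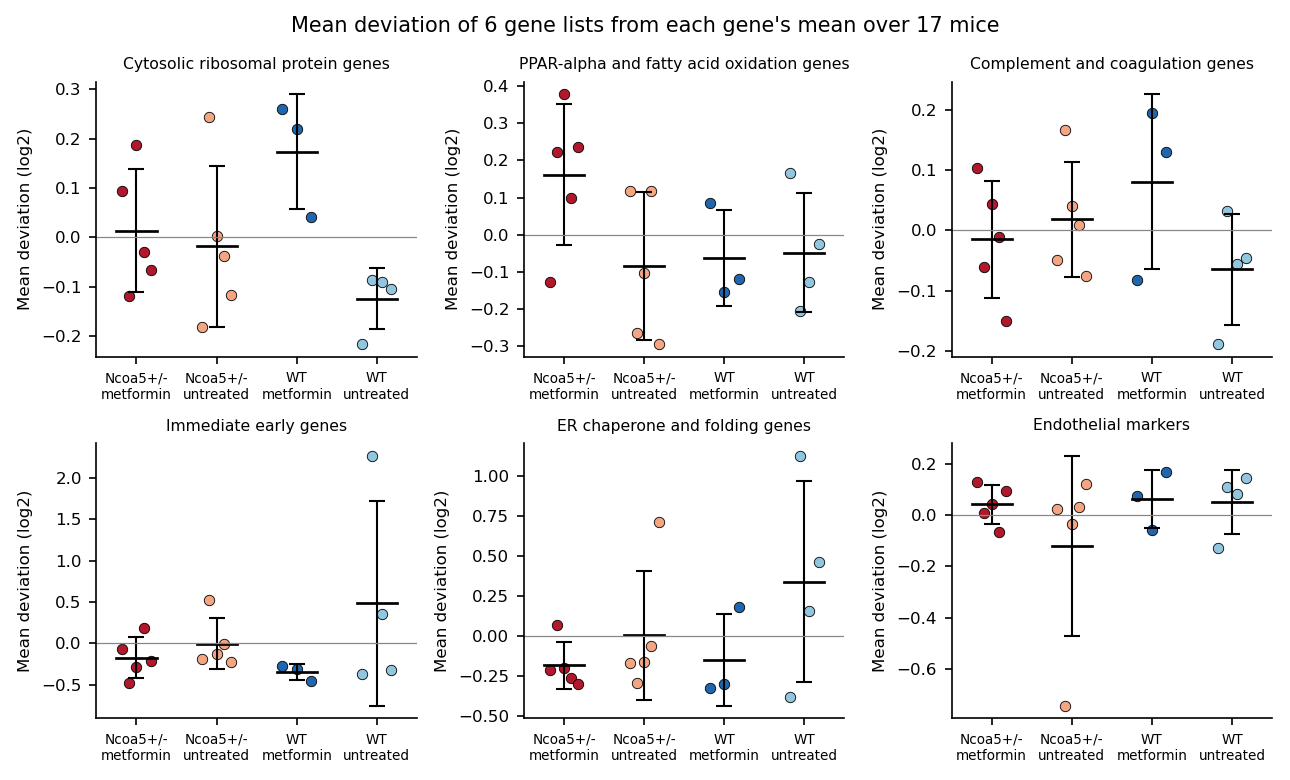
Mean deviation of 6 gene lists from each gene's mean over the 17 mice, in log2(FPKM + 1), for each liver. Points are mice, lines are group means and bars are 1 SD. Treated wild type mice lie above untreated wild type mice for ribosomal protein genes, and single untreated mice stand apart for immediate early genes (2.27), ER chaperone genes (1.13 and 0.7099) and endothelial markers (-0.743).

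Genes of the liver's secreted complement and coagulation proteins had 1 positive interaction of 24 tested, with a median of -0.17 and 0 at an unadjusted p under 0.05 in limma. The median was between -0.216 and -0.116 in all settings tried. Its separate changes were small, with medians of -0.04 in Ncoa5+/- mice and 0.11 in wild type mice. The lowest interaction was that of the complement gene C8b at -0.45, and that of the coagulation factor gene F7 was -0.22. Cholesterol synthesis genes were negative at 17 of 21 (median -0.13), but 11 of 21 were positive with a median of 0.0105 without treated wild type replicate 2. Squalene epoxidase, Sqle, had the lowest interaction of that list at -0.58 (changes -0.10 in Ncoa5+/- and 0.47 in wild type mice).

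Targets of p53 gave 15 positive interactions of 26 tested, a median of 0.05, and 0 at an unadjusted p under 0.05 in limma. The median changes were -0.09 in Ncoa5+/- mice and -0.06 in wild type mice. Without untreated wild type replicate 2 the median interaction was -0.0677, with 11 of 26 positive. The ribonucleotide reductase gene Rrm2b had the smallest p of the list (interaction 0.50, changes 0.13 in Ncoa5+/- and -0.37 in wild type mice). Proteasome subunit genes (17 of 28 positive, median 0.02) and extracellular matrix genes (10 of 18 positive, median 0.01) lay near the values over all loci.

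Immediate early genes, which are switched on within minutes of a stimulus, had the highest median interaction of the lists, and it rested on a single liver. Of 21 tested genes 20 were positive, with a median of 0.53 from medians of -0.14 in Ncoa5+/- mice and -0.59 in wild type mice. Fos measured 0.655, 0.371, 0.435, 1.21 and 0.659 FPKM in treated Ncoa5+/- mice, against 0.597, 1.22, 0.571, 0.736 and 0.459 FPKM in untreated Ncoa5+/- mice. Wild type mice given metformin had 0.430, 0.614 and 0.321 FPKM, against 0.617, 76.5, 7.85 and 0.320 FPKM in untreated wild type mice. The untreated wild type replicate 2 stood far above every other mouse, and replicate 3 was next. Without replicate 2 the median of the list was 0.0225 with 12 of 21 genes positive. The stress transcription factor gene Atf3 had an interaction of 1.435 (95% interval -0.13 to 3.00), with 20.2 FPKM in the same mouse and at most 1.81 FPKM in any other.

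The same liver stood out for the heat shock and ER chaperone genes. Heat shock genes were positive at 15 of 16 (median 0.34) and, without untreated wild type replicate 2, at 11 of 16 (median 0.0373). ER chaperone and folding genes were positive at 17 of 19 (median 0.21) and, without that mouse, at 11 of 19 (median 0.0340). Hspa5, the ER chaperone BiP, measured 196, 280, 199, 218 and 244 FPKM in treated Ncoa5+/- mice, against 225, 204, 167, 240 and 684 FPKM in untreated Ncoa5+/- mice. Wild type livers gave 172.5, 176 and 348 FPKM with metformin, against 187, 1248, 356 and 479.5 FPKM without. Values of 348 FPKM and above lay in 1 untreated Ncoa5+/- mouse, in 1 of 3 treated wild type mice and in 3 of 4 untreated wild type mice. Its interaction was 0.80, with a 95% interval of -0.64 to 2.24.

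These genes were high together in single livers, and their promoter windows (250 bases before to 50 bases after the start, GRCm38.p6, RefSeq) were read for the element their regulators are known to bind, on both strands. The ER stress response element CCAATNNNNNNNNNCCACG was found in 7 of the 16 ER chaperone genes with a window (43.8%), against 39 of all 32851 windows (0.119%). The heat shock element GAANNTTCNNGAA was found in 5 of 17 windows of heat shock genes (29.4%, against 0.603% of all windows), of which Hspd1 and Hspe1 share a divergent stretch. The cyclic AMP response element TGACGTCA was found in 2 of 16 windows of immediate early genes (12.5%, against 1.79% of all windows). An example of each, and further ER chaperone genes, are shown with the element in capitals.
Hspa5, chr2:34772020-34772049, plus strand: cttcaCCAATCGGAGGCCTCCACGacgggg
Dnajc3, chr14:118937822-118937851, plus strand: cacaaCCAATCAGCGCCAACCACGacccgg
Pdia6, chr12:17266486-17266515, plus strand: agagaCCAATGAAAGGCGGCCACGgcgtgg
Hspe1, chr1:55088056-55088085, plus strand: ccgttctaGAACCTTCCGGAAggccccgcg
Dusp1, chr17:26508597-26508626, minus strand: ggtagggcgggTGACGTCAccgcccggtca
The matches are a description of the windows and show no binding in these livers.

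Markers of other liver cell types also had one-sided interactions that rested on single mice. Macrophage and Kupffer cell markers were positive at 14 of 16 (median 0.22), but at 8 of 16 (median -0.00333) without untreated Ncoa5+/- replicate 2 and at 7 of 16 (median -0.0376) without untreated wild type replicate 3. All 18 listed markers were found, and none was at 0 in any mouse. Their summed level ran between 353 and 502 FPKM in treated Ncoa5+/- mice, 201 and 552.2 FPKM in untreated Ncoa5+/- mice, 384 and 505 FPKM in treated wild type mice, and 311 and 789 FPKM in untreated wild type mice. Endothelial markers were positive at 16 of 18 (median 0.19), and at 11 of 18 (median 0.00276) without untreated Ncoa5+/- replicate 2, where their sum was 125 FPKM. In the other mice that sum ran between 193 and 264 FPKM. That library was also the highest untreated Ncoa5+/- library for ribosomal protein genes, and the part of its cell makeup in those values was not tested. Lymphocyte markers were too low for more than 3 of 20 to be tested. The median interaction of these 3 was -0.38, and -0.0630 without untreated Ncoa5+/- replicate 1. The sum of the 17 lymphocyte markers found was 41.5 FPKM in that mouse and at most 25.9 FPKM in any other.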

How the data were processed

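Liver RNA of 17 mice was sequenced by the authors. Reads were trimmed with Trimmomatic 0.33, aligned with TopHat2 to GRCm38.p5 and quantified with Cufflinks and Cuffnorm, per the submitters' processing notes. The deposited value of each locus is FPKM, scaled between libraries by a method not given in the sources used here. The authors' deposited table of metformin in Ncoa5+/- mice gives p-values and q-values per locus.

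Values were analysed as log2(FPKM + 1) for loci averaging 1 FPKM or more, after 14 loci at 0 in a whole group and above 0 in every mouse of another were left out, with limma 3.58.1 in R 4.3.3 (group means, trended variance, two-sided moderated test, Benjamini-Hochberg threshold 0.05). Ncoa5 and Cdkn1a were tested by two-sided exact permutation. Intervals are at 95%. Replicates are separate mice by their labels, and the replicate numbers used in the text follow accession order and pair no mice.

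Ncoa5 and Cdkn1a were named, then the 10 positive and 10 negative genes with a regular symbol and the smallest unadjusted p, and the 3 genes with the smallest p of each list. Other genes were named to show a range, and some genes that the rule chose are not reported here. The comparison, the members and the 46 gene lists were chosen with earlier results of these data known, so lists are described by counts and medians, without a test. The script was tested on simulated data. Alternatives covered the pseudocount (0.1 and 5), the filter on low values, normalization, library weights and leaving out each mouse. The 20-week cohort was not used here.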

Additional observations from a re-analysis of the deposited data

Results flagged for a closer look

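In groups of 4 or 5 mice, 96 sets of values were examined for a single mouse far from the others by Dixon's criterion at the 95% level, and 9 were flagged. Chance flags about 1 in 20 groups.

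Ntmt1 was low in treated Ncoa5+/- replicate 4, at 6.06 FPKM, where the other 4 mice had 6.43 to 6.57 FPKM. Brca2 was low in untreated Ncoa5+/- replicate 1, at 1.70 FPKM, where the others had 2.16 to 2.37 FPKM, and high in untreated wild type replicate 4, at 1.90 FPKM, where the others had 1.67 to 1.69 FPKM.

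The other flags concern the mean log2 deviation of a gene list. For p53 targets treated Ncoa5+/- replicate 1 was at 0.299 (others 0.0766 to 0.134), and untreated wild type replicate 2 was at 0.166 (others -0.369 to -0.346). For cytosolic ribosomal protein genes untreated wild type replicate 1 was at -0.217 (others -0.104 to -0.0860). For ER chaperone genes treated Ncoa5+/- replicate 2 was at 0.0658 (others -0.304 to -0.202), and untreated Ncoa5+/- replicate 5 was at 0.7099 (others -0.295 to -0.0647). For endothelial markers untreated Ncoa5+/- replicate 2 was at -0.743 (others -0.0334 to 0.120).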

How the results depend on the processing

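Over 147 named loci and the settings tried, 4351 interaction values kept their sign and their side of the adjusted threshold, 0 passed it and 12 changed sign. The sign changes were mt-Nd6 (0.0156 with quantile normalization, 0.0494 without treated wild type replicate 2), Sox9 (-0.0404 without untreated wild type replicate 2), S100a9 (-0.110 without the 2 libraries with over 70% of their FPKM in 50 loci), S100a8 (-0.283 without those libraries, -0.101 without treated Ncoa5+/- replicate 5, -0.147 without untreated wild type replicate 2), Cela1 (0.0494 without those libraries, 0.00653 without treated wild type replicate 2, 0.0650 without untreated wild type replicate 1) and Cps1 (0.00115 without treated wild type replicate 2, 0.0383 without untreated wild type replicate 1). With each mouse left out, mt-Nd6 ran between -0.216 and 0.0494, Sox9 between -0.0404 and 0.660, S100a8 between -0.147 and 0.422, Cela1 between -0.373 and 0.0650 and Cps1 between -0.333 and 0.0383. The cause was not tested.

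The interaction called 2 loci with no filter (Shcbp1l and A230065N10Rik), 5 with failed estimates kept at 0 (Ahsg, C3, Scd1, Mup3 and Cyp2e1) and between 0 and 1 with each mouse left out. The 1 was Gm37116 without treated wild type replicate 1, a locus at 0 in every mouse but the other 2 treated wild type mice. Metformin in Ncoa5+/- mice called 4 with failed estimates kept at 0 (Ahsg, C3, Evi5 and Cyp2e1) and 0 with each mouse left out. Metformin in wild type mice called 2 with no filter, 2 with failed estimates kept (Scd1 and Mup3) and between 0 and 1 with each mouse left out (Gm14148 without treated Ncoa5+/- replicate 3 or 4, Gm37116 without treated wild type replicate 1). Calls of failed estimates come from the zeros themselves. Unadjusted counts ran between 195 and 810 for the interaction, 630 and 1694 for metformin in Ncoa5+/- mice and 715 and 1738 for metformin in wild type mice. The interaction of Cdkn1a was 0.327 with a pseudocount of 0.1 and between -0.308 and 0.414 with each mouse left out, and that of Ncoa5 was between -0.254 and 0.115 (0.115 without treated wild type replicate 3). Chosen after the data were seen, removing the length trend gave 0 called and 247 unadjusted of 9969 loci, protein-coding loci alone gave 0 and 249 of 9196, and leaving out all loci at 0 in a whole group gave 0 and 317 of 11335. No paired analysis was possible because the labels carry no replicate numbers that link mice across groups.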
